A study of Mus musculus with 24 samples.

Results

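The proteasome subunit genes are the 39 gene symbols of the count tables that consist of *Psma*, *Psmb*, *Psmc* or *Psmd* and a number, out of 25793 symbols in all. Each was followed in the cerebellum (CB) and hippocampus (HC) of 16GsoT/T and wild type (WT) mice at postnatal days 14 and 35 (P14 and P35), with 3 mice in each of the 8 groups and 24 RNA-seq libraries in all. The 16GsoT/T mice were homozygotes, bred from homozygous parents, for a reciprocal translocation that arose among the progeny of males exposed to *bis*-acrylamide and that separates *Auts2* from *Galnt17* on chromosome 5 and joins chromosome 8 next to *Sox1*. WT mice carried neither translocated chromosome. The labels give C57BL/6 as the strain background of every mouse, the labels of most WT libraries also carry the name B6C3, and the methods of the study describe a mixed C57BL/6 and C3H/He background. The mice were males, and no mouse received a treatment. The translocation is in every cell and moves more than one gene, so that the parts of *Auts2*, *Galnt17* and other genes near the breakpoints cannot be told apart.

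Proteasomes degrade proteins that carry chains of ubiquitin, and neurons depend on them at the synapse and in the cell body. The 20S core is a barrel of alpha and beta rings. The alpha rings, built of the products of *Psma1* to *Psma7*, form the gate, while the beta rings, built of those of *Psmb1* to *Psmb7*, hold the proteolytic sites of *Psmb5* (chymotrypsin-like), *Psmb6* (caspase-like) and *Psmb7* (trypsin-like). The 19S particle caps the core. Its base has the ATPases *Psmc1* to *Psmc6*, which unfold substrates, and the subunits *Psmd1*, *Psmd2* and *Psmd4*, and its lid includes the deubiquitinase *Psmd14*. In cells that respond to interferon, *Psmb8*, *Psmb9* and *Psmb10* replace *Psmb5*, *Psmb6* and *Psmb7* to give the immunoproteasome. *Psma8* is the alpha subunit of testis, *Psmb11* the beta subunit of the thymus, and *Psmd5*, *Psmd9* and *Psmd10* encode chaperones that help to assemble the base.

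The promoters of 32 of the 39 genes were found in the RefSeq table of the build GRCm38.p6. The first promoter listed for each gene was used, which gave 27025 promoters in all. The genes not matched were *Psma8*, *Psmb1*, *Psmb2*, *Psmb7*, *Psmc3*, *Psmd3* and *Psmd7*. Windows of 300 bases, from 250 before to 50 after the start of the gene, were searched on both strands for TGACNNNGC, the core of the antioxidant response element at which Nrf1 and Nrf2 are known to act on proteasome genes, and for CCAAT, to which NF-Y binds. Neither motif contains the other. TGACNNNGC was found in 5 of the 32 windows, or 15.6%, against 12.5% of all promoters, and CCAAT in 13, or 40.6%, against 37.9%. The 150 bases before the start are shown for *Psmb5* (chr14:54617996-54618145, − strand) and *Psmd2* (chr16:20651502-20651651, + strand), the genes with the largest increases in 16GsoT/T of P35 CB, and for *Psmb6* (chr11:70525207-70525356, + strand), which was also called higher there, though not with the correction for GC content described with that comparison, and holds TGACNNNGC in these bases. Each runs 5′ to 3′ in the direction of transcription and ends at the base before the start, and capitals mark TGACNNNGC.
Psmb5: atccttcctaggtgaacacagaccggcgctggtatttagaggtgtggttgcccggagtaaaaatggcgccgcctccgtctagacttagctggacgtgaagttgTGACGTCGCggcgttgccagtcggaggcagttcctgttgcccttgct
Psmb6: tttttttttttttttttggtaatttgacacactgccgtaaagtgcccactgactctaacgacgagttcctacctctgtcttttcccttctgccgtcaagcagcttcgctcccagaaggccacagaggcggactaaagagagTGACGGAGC
Psmd2: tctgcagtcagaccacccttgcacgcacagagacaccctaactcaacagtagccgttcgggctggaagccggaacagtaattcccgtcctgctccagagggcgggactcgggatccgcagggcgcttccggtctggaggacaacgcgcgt
The bases shown for *Psmd2* hold neither motif. Of the 14 genes called higher in P35 CB that had a promoter, *Psmb5* and *Psmb6* held TGACNNNGC, or 14.3%. The other matches to TGACNNNGC were in *Psmc6*, which was called lower, and in *Psmd9* and *Psmd12*, which were not called. CCAAT was in 3 of the 14, or 21.4%, in 1 of the 2 called lower, and in 7 of the 13 not called, or 53.8%. These differences were not tested.

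The libraries held 2563968 to 40564789 reads on genes. The depth was lowest in P35 HC and highest in P14 CB. Reads on the proteasome genes numbered from 7475 to 130818 per library. In P35 CB, 42.3% ± 0.0563 (SD, n = 3) of all reads were on genes in 16GsoT/T and 37.7% ± 0.0648 in WT, so the libraries of the 2 genotypes stood apart before any gene was compared. In P14 CB the mean shares were 65.9% in WT and 67.0% in 16GsoT/T, against 40.0% to 41.7% in the groups of HC. Any comparison of P14 CB with another age or region therefore sets unlike libraries against each other. In P14 HC each genotype had a lane of its own, and the 2 cannot be told apart. In P35 HC the library numbers of 2 WT libraries were far from the other 4. *Galnt17*, listed under the older symbol *Wbscr17*, was lower in 16GsoT/T in all 4 comparisons, by log2 differences of 1.05 at P14 (adjusted p = 0.000563, edgeR) and 0.31 at P35 (0.00835) in CB, and of 0.46 at P14 (0.0163) and 0.62 at P35 in HC, where it did not pass (0.12). The marker lists for cerebellar granule neurons and Purkinje cells summed to more in every CB than in any HC library, and the list for hippocampal neurons did the reverse. Values are CPM, the reads on a gene scaled to a common library size with factors set over all 24 libraries, or log2 fold changes with their standard errors from edgeR, and a gene was called changed at an adjusted p of at most 0.05 over all genes tested. These are whole tissues, in which fewer cells of a type and less RNA per cell cannot be told apart.

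The clearest change was in P35 CB. Of the 35 proteasome genes with enough counts to test there, 19 were higher in 16GsoT/T and 2, *Psma3* and *Psmc6*, were lower. The count of 21 was 13 without the 16GsoT/T mouse C21, 14 without the WT mouse M27, 10 when all 12 libraries of the age were fitted together and 12, all higher, with a correction for GC content, under which *Psmc6* was at 0.16. Without these changes to the fit 35.3% of all genes tested were called, 17.4% as higher and 18% as lower. There both the share called (60.0% of the 35) and the split of directions differed from those of all genes. The count of all genes called went from 4947 to 4422 with the correction for GC content and to 3492 with all 12 libraries. Each was a smaller fall in proportion than that of the members, so the difference in the share called depended on the fit. The median log2 fold change of the 35 genes was 0.21, against -0.004 over all genes tested. The changes were small: the 19 increases ranged from 14.5% to 40.2%, and no proteasome gene reached a fold change of 1.5. Libraries of the 2 genotypes did not overlap for 25 of the 35, with 16GsoT/T higher for 24 and lower for 1, where over all genes 24.8% stood apart as higher and 22.8% as lower. All members together summed to 2660, 2708 and 2719 CPM in the WT and 3033, 3102 and 3303 CPM in the 16GsoT/T libraries.

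**Figure D1:**
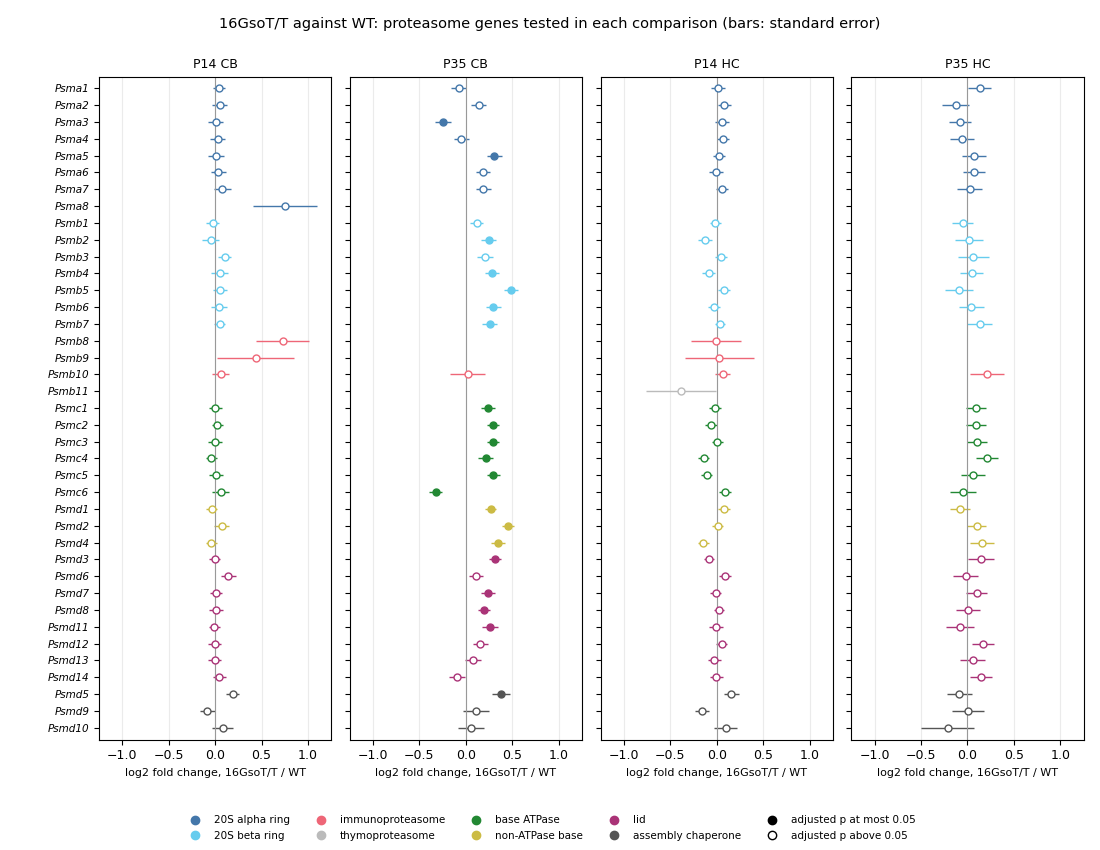
Log2 fold change of 16GsoT/T against WT (x axis) for each proteasome gene tested (y axis, ordered and coloured by role) in the 4 comparisons, with standard errors as bars and filled points at an adjusted p of at most 0.05. Filled points occur in P35 CB alone, where 19 lie to the right of 0 and 2, *Psma3* and *Psmc6*, to the left.

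Without the correction for GC content, the increase in P35 CB ran through the beta ring, the base and part of the lid. The counts below stand against 17.4% of all genes called higher. Among the beta subunits 5 of 7 rose, *Psmb2*, *Psmb4*, *Psmb5*, *Psmb6* and *Psmb7*, which include all 3 constitutive catalytic subunits. Among the ATPases 5 of 6 rose and *Psmc6* fell, and all 3 of *Psmd1*, *Psmd2* and *Psmd4* rose. In the lid 4 of 8 rose, *Psmd3*, *Psmd7*, *Psmd8* and *Psmd11*. In the alpha ring, of 7 genes tested, *Psma5* rose and *Psma3* fell. Of the assembly chaperones *Psmd5* rose, while *Psmd9* (log2 fold change 0.11 ± 0.14) and *Psmd10* (0.05 ± 0.14) were not called. The 14 genes tested and not called had log2 fold changes from -0.10 to 0.20, 11 of them above 0. The medians by role were 0.14 for the alpha ring, 0.26 for the beta ring, 0.27 for the ATPases, 0.35 for the non-ATPase base and 0.18 for the lid. With the correction for GC content *Psmb2*, *Psmb4*, *Psmb6*, *Psmb7*, *Psmc1*, *Psmc4*, *Psmd7* and *Psmd8* were no longer called. Of the beta ring this left *Psmb5* alone. Among the 6 fits without 1 library, *Psma3*, *Psmb2*, *Psmb7*, *Psmc1*, *Psmd7* and *Psmd11* were called in 2, and *Psmc4* and *Psmd8* in 1.

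*Psmb5* (ENSMUSG00000022193.5; NCBIM37 chr14:55232644-55236851, − strand) had the largest increase. Its values were 47.9, 43.6 and 47.9 CPM in WT and 67.1, 65.7 and 64.0 CPM in 16GsoT/T. Every 16GsoT/T library was above every WT library, and the log2 fold change was 0.49 ± 0.08 (adjusted p = 0.000414). *Psmd2* (ENSMUSG00000006998.8; chr16:20651725-20663487, + strand), which encodes a scaffold of the base, was at 207, 199.7 and 216 CPM in WT and 305, 266 and 290.3 CPM in 16GsoT/T. Again the groups did not overlap, with a log2 fold change of 0.45 ± 0.07 (adjusted p = 0.000252).

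*Psmd5* (ENSMUSG00000026869.6; chr2:34707608-34726459, − strand) was at 39.6, 41.2 and 45.3 CPM in WT and 61.6, 55.8 and 48.2 CPM in 16GsoT/T, a log2 fold change of 0.38 ± 0.10 (adjusted p = 0.0103). The lowest 16GsoT/T library lay close to the highest WT library. The ubiquitin receptor gene *Psmd4* (ENSMUSG00000005625.9; chr3:94836616-94846536, − strand) was at 70.9, 73.6 and 75.3 CPM in WT and 103, 87.4 and 93.0 CPM in 16GsoT/T, a log2 fold change of 0.35 ± 0.08 (adjusted p = 0.00347). The lid gene *Psmd3* (ENSMUSG00000017221.8; chr11:98543868-98557293, + strand) was at 106, 110.0 and 107 CPM in WT and 147, 130.4 and 129 CPM in 16GsoT/T, a log2 fold change of 0.32 ± 0.07 (adjusted p = 0.00313). For *Psmd4* and *Psmd3* the WT libraries lay close together and all 16GsoT/T libraries were above them.

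The alpha ring gene *Psma5* was at 50.7, 53.5 and 52.4 CPM in WT and 67.3, 69.9 and 58.7 CPM in 16GsoT/T (log2 fold change 0.31 ± 0.08, adjusted p = 0.0126). The ATPase gene *Psmc5* was at 126, 146 and 137 CPM in WT and 175, 168 and 164 CPM in 16GsoT/T (0.30 ± 0.07, adjusted p = 0.00451). *Psmb6*, with 71.8, 71.1 and 66.3 CPM in WT and 91.1, 77.8 and 91.0 CPM in 16GsoT/T, rose by 0.29 ± 0.08 (adjusted p = 0.0123). The third catalytic gene, *Psmb7*, was at 104, 112 and 100.2 CPM in WT and 136, 113 and 134 CPM in 16GsoT/T (0.26 ± 0.08, adjusted p = 0.0264). In *Psmb7* 1 mutant library was only just above the highest WT library. *Psmd1*, with 117, 115 and 111 CPM in WT and 146, 135 and 136 CPM in 16GsoT/T, rose by 0.27 ± 0.06 (adjusted p = 0.0051).

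The 2 decreases concerned an ATPase and an alpha subunit. *Psmc6* (ENSMUSG00000021832.6; chr14:45949504-45969367, + strand) was at 88.0, 84.9 and 87.5 CPM in WT and 74.0, 70.5 and 65.7 CPM in 16GsoT/T, without overlap, and fell by 0.32 ± 0.07 on the log2 scale (adjusted p = 0.00365). *Psma3* (ENSMUSG00000060073.3; chr12:72075608-72097334, + strand) was at 93.2, 79.7 and 89.0 CPM in WT and 82.0, 71.9 and 68.9 CPM in 16GsoT/T, and fell by 0.25 ± 0.08 (adjusted p = 0.038). It was the 1 called proteasome gene in which the genotypes overlapped. DESeq2 did not call *Psma3*, nor did the fit of all 12 libraries of the age.

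**Figure D2:**
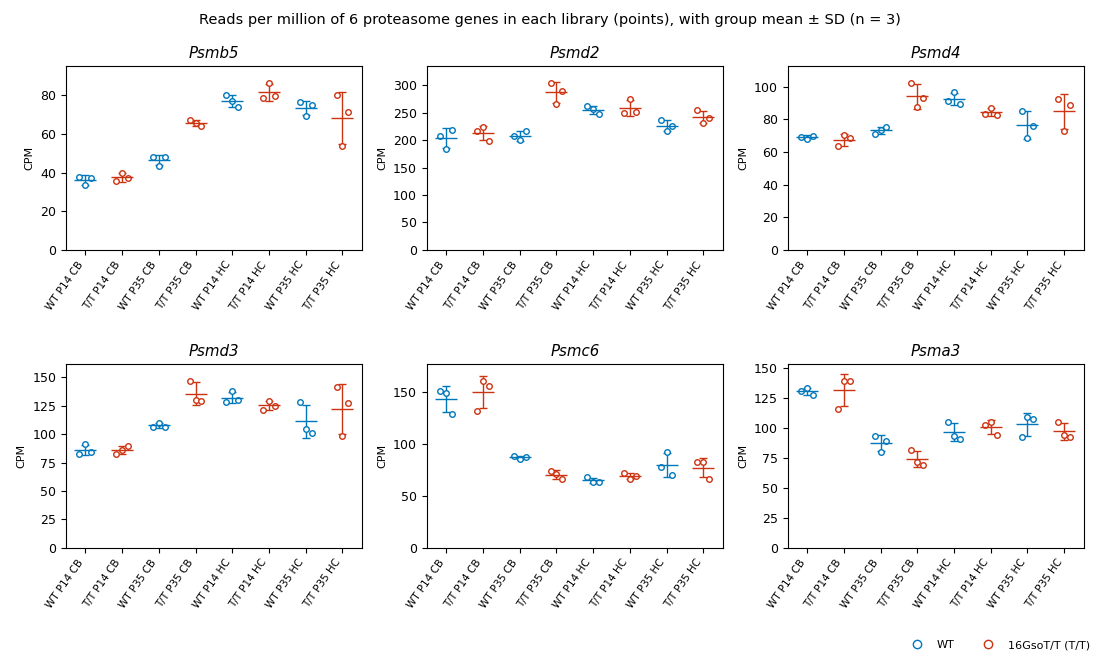
CPM (y axis, from 0) of 6 proteasome genes in the 24 libraries (points), with the mean and SD of the 3 libraries of each group (x axis; blue WT, red 16GsoT/T). In P35 CB the 16GsoT/T libraries of *Psmb5* sit between 64.0 and 67.1, above the WT libraries at 43.6 to 47.9, and those of *Psmc6* sit below WT.

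The change of a proteasome gene in P35 CB moved with its base composition. Over the 34 tested members with a known exon sequence, Spearman's rho between the GC content of the exons and the log2 fold change was 0.44, and over 12814 genes it was 0.25. These are descriptions across genes, which share the 6 libraries. *Psmc6* and *Psma3* had exons of 36.2% and 41.2% GC, whereas those of *Psmb5* had 55.9%. When the trend with GC content was removed within each library, 12 proteasome genes were called and all 12 were higher in 16GsoT/T. These shared 11 genes with the 21, among them *Psmb5* (log2 fold change 0.40, adjusted p = 0.0019), *Psmd2* (0.38, 0.000847), *Psmd5* (0.42, 0.00593), *Psmd4* (0.25, 0.019), *Psmd3* (0.23, 0.0176), *Psma5* (0.26, 0.0268), *Psmc5* (0.20, 0.03) and *Psmd1* (0.27, 0.00547), and *Psma2* was added. With that correction both decreases were lost, *Psmc6* being at 0.16 (adjusted p = 0.0827) and *Psma3* at -0.02 (0.858), and neither *Psmb6* (0.21, 0.0621) nor *Psmb7* (0.23, 0.0504) passed. The median of the 35 genes was 0.19 after the correction, which was added after the data had been seen. *Psmd14*, 1 of the 35, had no GC value and was not corrected.

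**Figure D3:**
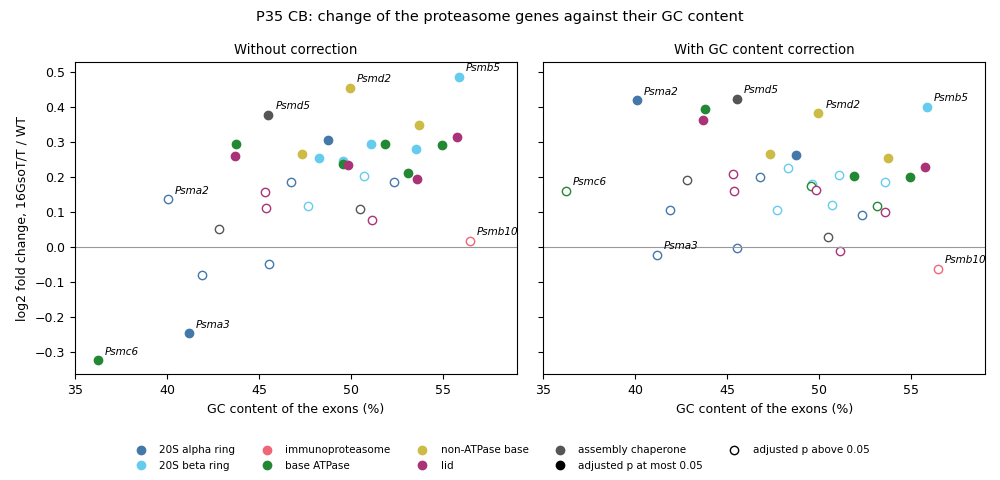
Log2 fold change of 16GsoT/T against WT in P35 CB (y axis) against the GC content of the exons in percent (x axis) for the 34 tested proteasome genes with an exon sequence, coloured by role, with filled points at an adjusted p of at most 0.05. *Psmc6*, at 36.2% GC, moves from below 0 on the left to 0.16 on the right, where the trend with GC content was removed, and *Psmb5* is at 0.40 there.

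Markers of cell types were counted in the same libraries, where 35.3% of all genes tested were called, 17.4% as higher and 18% as lower. The 8 genes listed for neurons in general summed to 3894 to 4314 CPM in WT and 6305 to 6442 CPM in 16GsoT/T, and 5 of 8 rose. The 12 endothelial markers all fell, from sums of 229 to 243 CPM in WT to 117 to 143 CPM in 16GsoT/T. Of the 8 granule neuron markers 4 rose and 1 fell, from sums of 5191 to 5510 CPM to 6083 to 6328 CPM, and 3 of 6 Purkinje cell markers rose. Of 4 blood markers 2 rose and 1 fell, with sums of 117 to 167 CPM in WT and 173 to 282 CPM in 16GsoT/T, and 3 of 10 oligodendrocyte markers fell. Of 8 astrocyte markers 1 rose and 1 fell, and of 13 microglial markers 1 fell. The shares called in either direction among the oligodendrocyte, astrocyte and microglial markers were below that of all genes. Choroid plexus markers summed to 19.3 CPM in 1 WT library and to 1210.2 and 2087 CPM in the others. No marker of these lists was at 0 in a whole group. Their part in the proteasome result was not tested.

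Lists of genes that act with the proteasome or with its immune form were read against all genes in P35 CB. Of these 35.3% were called in either direction, 17.4% as higher and 18% as lower. Of 20 genes listed for ubiquitin and its delivery to the proteasome, 12 rose in P35 CB and 1 fell. Among those that rose were *Ubqln2*, which encodes a shuttle for ubiquitinated proteins (0.65 ± 0.06, adjusted p = 7.06e-06), and *Uba1*, which encodes the main ubiquitin-activating enzyme (0.65 ± 0.06, 5.36e-06). Of 20 regulators and assembly factors 4 rose and 1 fell. The share called in either direction was below that of all genes, but the share that rose was not. The largest changes were in the assembly chaperone *Psmg3* (0.51 ± 0.18, adjusted p = 0.0434), *Zfand2a* (0.25 ± 0.08, 0.039) and the activator *Psme4*, which fell by 0.24 ± 0.07 (0.0199). Of 12 genes tested that activate or process activators of proteasome genes, 3 rose and 0 fell. Here too the share called in either direction was below that of all genes, and the share that rose was not. The 3 were *Foxo3* (0.63 ± 0.06, adjusted p = 1.15e-05), *Foxo1* (0.57 ± 0.12, 0.00309) and *Nfya* (0.42 ± 0.12, 0.014). *Nfe2l1*, which encodes Nrf1, was not among them (0.10 ± 0.06, adjusted p = 0.208). The interferon and class I presentation list moved the other way, with 7 of 19 lower and none higher. Its largest decreases were in *Irf7* (-1.47 ± 0.37, adjusted p = 0.00907), *Gbp3* (-1.42 ± 0.28, 0.00205) and *H2-K1* (-1.31 ± 0.29, 0.00435).

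In the other 3 comparisons of genotype, edgeR called none of the proteasome genes. In P14 CB, with the deepest libraries, 0 of 38 genes passed and 2 were under an unadjusted p of 0.05, *Psmd5* (0.19 ± 0.07) and *Psmb8* (0.73 ± 0.28). DESeq2 and the classic exact test of edgeR called 0 there as well, and 0.506% of all genes tested were called. The median of the 38 was 0.03. In 16GsoT/T of P14 CB the counts of mouse 4 were further from those of mice 5 and 6 than these were from each other. Without mouse 4 the median of the members was 0.07 and 0 were called, while the calls over all genes went from 81 to 181. Without mouse 5 the median was -0.01, with 0 members and 46 genes called. In P14 HC 0 of 38 passed against 0.814% of all genes, 1 gene had an unadjusted p under 0.05 (*Psmd4*, -0.14 ± 0.06), the median was 0.01, and DESeq2 and the exact test called 0. In P35 HC 0 of 35 passed against 0.135% of all genes, 0 had an unadjusted p under 0.05, the median was 0.06, and both other tests called 0. Of the genes named above, *Psmb5* was at 69.4 to 76.5 CPM in WT and 53.7 to 80.0 CPM in 16GsoT/T of P35 HC, and *Psmc6* at 69.5 to 91.5 and 66 to 82.3 CPM. The lowest 16GsoT/T library of *Psmb5*, at 53.7 CPM, was the shallowest of the series.

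Whether the effect of genotype differed between ages or regions was tested as an interaction. In CB, 6 of 37 proteasome genes differed between P35 and P14, where 18.6% of all genes did. The effect of genotype was larger at P35 for *Psmb5* (difference of log2 fold changes 0.43 ± 0.11, adjusted p = 0.012), *Psmd4* (0.38 ± 0.10, 0.0131), *Psmd1* (0.30 ± 0.08, 0.0193), *Psmd2* (0.38 ± 0.11, 0.0254) and *Psmd3* (0.32 ± 0.09, 0.0273), and lower for *Psmc6* (-0.39 ± 0.12, 0.0363). *Psmb5* was at 38.0, 33.4 and 37.0 CPM in WT and 35.4, 39.8 and 37.3 CPM in 16GsoT/T of P14 CB, which overlapped. *Psmc6* was at 151, 149 and 129 CPM and 132, 160.5 and 155 CPM in the same groups. Between CB and HC at P35 only *Psmb5* of 35 genes differed (0.57 ± 0.17, adjusted p = 0.0368), against 9.61% of all genes. In HC between ages 0 of 37 differed, against 0.00666% of all genes, with 1 under an unadjusted p of 0.05, and between regions at P14 0 of 38 and 0% of all genes, with 0 under an unadjusted p of 0.05. DESeq2 called 0 in both. The share of proteasome genes called in CB, 16.2%, was close to that of all genes. The count of 6 fell to 3 without either of 2 P35 CB libraries, the 16GsoT/T mouse C19 and the WT mouse M29. Of the 12 fits without 1 library, *Psmb5* and *Psmd4* were called between ages in 12, *Psmd1* in 10, *Psmd3* in 8, *Psmd2* in 6 and *Psmc6* in 4. With the correction for GC content 5 of 37 proteasome genes were called between ages in CB, all with a difference above 0. Of the 6 named, *Psmd1* (0.31, adjusted p = 0.0144) and *Psmd4* (0.29, 0.0489) were among them. *Psmb5* (0.34, 0.0528), *Psmd2* (0.30, 0.064) and *Psmd3* (0.22, 0.0906) did not pass, and *Psmc6* was at 0.20 (0.173). The call of *Psmb5* between regions was lost in 9 of the 12 fits without 1 library, those without any of the 6 P35 CB libraries or without B12, N10 or W483 of P35 HC, and was at 0.57 (0.0193) with the correction.

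The immunoproteasome genes were well below their constitutive partners. Per length of the longest coding transcript (RPKM), *Psmb5* was at 53.3 ± 2.89 (SD, n = 3) and *Psmb8* at 0.706 ± 0.421 in WT of P35 CB, *Psmb6* at 87.4 ± 3.77 and *Psmb9* at 0.655 ± 0.154, and *Psmb7* at 91.0 ± 5.42 and *Psmb10* at 9.35 ± 2.61. Over the 8 groups, for each 100 of the partner on this scale there were on average 0.95 to 1.88 of *Psmb8*, 0.24 to 1.05 of *Psmb9* and 5.71 to 21 of *Psmb10*. *Psmb8* rested on 2 to 44 reads per library and *Psmb9* on 1 to 19, and neither passed the filter on low counts in the comparisons of genotype at P35. *Psmb10* therefore stood apart from the other 2 by its level in every group.

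**Figure D4:**
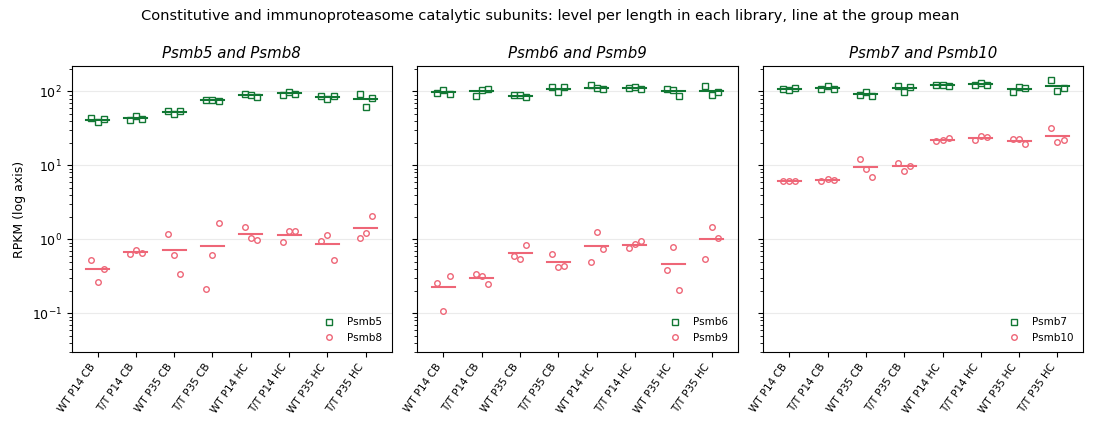
RPKM (y axis, log scale) of each constitutive catalytic gene (green squares) and its immunoproteasome partner (red circles) in the 24 libraries, with lines at the group means; T/T is 16GsoT/T. *Psmb10* lies nearer to its partner than *Psmb8* and *Psmb9* do, and is at 5.71 per 100 of *Psmb7* in WT P14 CB and 18.6 in WT P14 HC.

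No immunoproteasome gene passed the test between genotypes. *Psmb10* was at 15.4, 11.4 and 8.80 CPM in WT and 13.5, 10.8 and 12.5 CPM in 16GsoT/T of P35 CB, with a log2 fold change of 0.02 ± 0.19 (adjusted p = 0.949). In P35 HC it was at 28.7, 28.7 and 25.0 CPM in WT and 40.3, 26.7 and 27.5 CPM in 16GsoT/T (0.21 ± 0.18, adjusted p = 0.82), in P14 CB the difference was 0.06 ± 0.10 (0.923) and in P14 HC 0.07 ± 0.08 (0.73). The standard error of *Psmb10* in P35 CB was 0.19, against 0.08 for *Psmb5*, and the result does not show that *Psmb10* was unchanged. *Psmb8* was at 0.86, 0.435 and 0.651 CPM in WT and 1.03, 1.16 and 1.06 CPM in 16GsoT/T of P14 CB, which did not overlap, and did not pass (0.73 ± 0.28, adjusted p = 0.481). *Psmb9* in P14 CB (0.44 ± 0.41, 0.844) and both genes in P14 HC (*Psmb8* -0.01 ± 0.27, 0.993; *Psmb9* 0.03 ± 0.37, 0.979) had wide errors. Among the constitutive partners in these comparisons, *Psmb5* was at 0.05 ± 0.08 at P14 in CB (adjusted p = 0.914), and in HC at 0.08 ± 0.06 at P14 (0.546) and -0.09 ± 0.15 at P35 (0.923). *Psmb6* was at 0.04 ± 0.09, -0.03 ± 0.06 and 0.04 ± 0.13 in the same order (0.942, 0.867 and 0.968), and *Psmb7* at 0.05 ± 0.06, 0.04 ± 0.06 and 0.13 ± 0.14 (0.895, 0.777 and 0.859).

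Between the regions of WT mice, 27 of 38 proteasome genes differed at P14 and 20 of 35 at P35, or 71.1% and 57.1%, against 77.2% and 56% of all genes. At P14, 19 of 38 were lower in CB than in HC and 8 were higher, where 38.4% and 38.8% of all genes were lower and higher. All 3 immunoproteasome genes were lower in CB, *Psmb10* by 1.89 ± 0.09 on the log2 scale (adjusted p = 2.44e-08), *Psmb9* by 1.92 ± 0.47 (0.00363) and *Psmb8* by 1.55 ± 0.32 (0.00117). Their partners were lower too, *Psmb5* by 1.11 ± 0.07 (2.68e-07), *Psmb6* by 0.24 ± 0.07 (0.0122) and *Psmb7* by 0.19 ± 0.06 (0.0147), and *Psmb11*, with at most 14 reads in a library, by 2.17 ± 0.59 (0.0064). *Psmc6* was higher in CB by 1.12 ± 0.08 (3.72e-07), but lower by a log2 difference of -0.23 (0.00719) once the trend with GC content was removed. With that correction *Psmb10* (-1.45, 1.91e-07), *Psmb8* (-1.26, 0.00502), *Psmb5* (-0.71, 1.53e-05) and *Psmb7* (-0.34, 0.00033) were still lower in CB, and *Psmb6* was at -0.15 (0.0867). *Psmb9* had no GC value and could not be corrected. At P35, 20 of 35 were lower in CB, against 28.5% of all genes, and 0 were higher, against 27.5%. Among them were *Psmb10* (-1.26 ± 0.18, adjusted p = 6.2e-05), *Psmb5* (-0.73 ± 0.09, 2e-05), *Psmb6* (-0.25 ± 0.10, 0.0405) and *Psmb7* (-0.30 ± 0.09, 0.0103). The microglial markers, of which 14 of 14 were called lower in CB at each age, summed to 171 to 221 CPM over the CB libraries and 461 to 656 CPM over the HC libraries, and their part in the levels of the immunoproteasome genes was not tested.

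With age in WT CB, 19 of 37 proteasome genes fell from P14 to P35 and 5 rose, where 30.9% of all genes fell and 32.2% rose. All 5 alpha ring genes that were called fell, as did 6 of the 7 lid genes called. *Psmc6* fell by 0.71 ± 0.07 (adjusted p = 7.09e-07) and *Psma3* by 0.57 ± 0.07 (3.58e-06), while *Psmb5* rose by 0.37 ± 0.08 (0.00109), *Psmd3* by 0.34 ± 0.06 (0.000305), *Psmc5* by 0.23 ± 0.07 (0.011), *Psmb10* by 0.64 ± 0.16 (0.00331) and *Psmb9* by 1.54 ± 0.51 (0.0167). *Psmb8* (0.85 ± 0.45, 0.112), *Psmb6* (-0.13 ± 0.07, 0.113) and *Psmb7*, which fell by 0.21 ± 0.06 (0.00848), complete the pairs. With the correction for GC content *Psmb5* (0.08, adjusted p = 0.409), *Psmd3* (0.05, 0.454), *Psmc5* (0.15, 0.0799) and *Psmb10* (0.33, 0.106) no longer passed, and the decreases of *Psmc6* (-0.17, 0.0233) and *Psma3* (-0.21, 0.00803) were smaller. In WT HC 5 of 36 fell and 1, *Psmd5* (0.40 ± 0.10, 0.0181), rose (0.28, 0.0938 with the correction), against 12.2% and 12.6% of all genes. Those that fell were *Psmb2*, *Psmc4*, *Psmd4*, *Psmd8* and *Psmd13*, and none of the catalytic pairs was called.

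**Figure D5:**
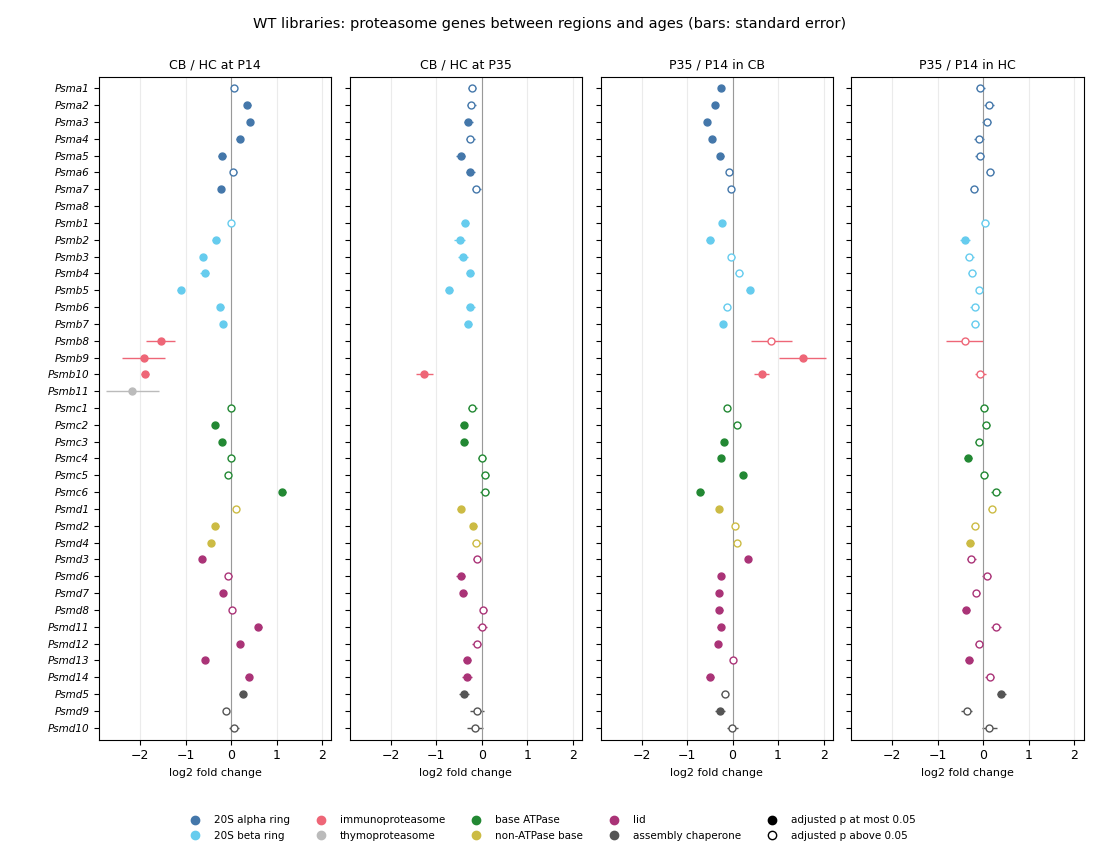
Log2 fold changes between WT groups (x axis) for each proteasome gene tested (y axis, by role), with standard errors as bars and filled points at an adjusted p of at most 0.05. In the panels comparing regions *Psmb10* and *Psmb5* lie left of 0 at both ages, and *Psmc6* lies right of 0 at P14 (left of 0, at -0.23, with the correction for GC content, which is not drawn) and left of 0 with age in CB.

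The comparisons of WT groups also moved with GC content. Spearman's rho over the members was -0.77 for CB against HC at P14, -0.06 at P35, 0.62 for age in CB and -0.69 for age in HC. With the correction for GC content, 3 of 38 genes were higher and 26 lower in CB at P14, and at P35 22 were lower and none higher. With age in CB, 2 rose and 14 fell with the correction. Regions and ages were also separate series of libraries, so that tissue or age and library preparation cannot be told apart. The P14 CB libraries also had a far larger share of reads on genes than those of any other group.

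Within one group the RNA levels of the subunit genes differed by several fold, while the particle holds the proteins in fixed numbers. The amounts of protein were not measured here, so the RNA levels do not give those of the subunits. In WT P35 CB the 14 subunits of the constitutive core ranged from 25.2 RPKM (*Psma2*) to 91.5 RPKM (*Psmb1*), with a median of 66.1, and the 17 subunits of the 19S particle from 17.8 RPKM (*Psmd11*) to 103 RPKM (*Psmc5*), with a median of 45.1. The transcript behind the count of a gene is not known, and a longer one than the cells use lowers its RPKM. *Psma8* had 0 to 16 reads and *Psmb11* 0 to 14 reads in a library.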

How the data were processed

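The authors aligned stranded mRNA reads with TopHat2 2.0.8 to NCBIM37 and deposited raw counts per gene from HTSeq 0.6.1, per the submitters' processing notes. The annotation and the strand option are not given in the sources used here, and the labels and methods name different library kits. No column of per-sample values was left out. Groups came from the labels. Counts were tested with edgeR 4.0.16 (R 4.3.3): TMM scaling, filterByExpr (minimum count 10, minimum total 15), a quasi-likelihood test over all genes and Benjamini-Hochberg adjustment, with a limit of 0.05. P-values measure the spread between mice. DESeq2 1.42.0, other scalings and filters, and fits without each library were alternatives, and the correction for GC content was chosen after seeing the data. On simulated data with a median absolute log2 change of 0.998, larger than any difference of a member between genotypes called here, the fit recovered 93.4% of 196 changed genes in P35 CB, and 83.3% in P35 HC and 79.8% for the interaction with age in CB at medians of 1.01 and 0.993. GC content came from GENCODE vM1 exons on NCBIM37 for 37 of the 39 genes, and RPKM from the longest coding transcript. *Psmb9* and *Psmd14* had no GC value, and the correction left them as they were. The members and lists were chosen with earlier results of these data known. Full values are given for the catalytic pairs, for up to 8 called members with the largest change per comparison of genotype and for members called in an interaction, plus up to 3 called genes of each related list. One gene that this rule names is not reported here. Other members named, such as *Psma2*, *Psmd9* and *Psmd10*, and *Nfe2l1*, were chosen after their values were seen.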

Additional observations from a re-analysis of the deposited data

Results flagged for a closer look

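The effect of genotype differed by an interaction test for 7 results, each a difference between 2 log2 fold changes of 16GsoT/T against WT. Between P35 and P14 in CB it differed for *Psmb5* (0.43), *Psmd4* (0.38), *Psmd2* (0.38), *Psmd3* (0.32), *Psmd1* (0.30) and *Psmc6* (-0.39). These were 16.2% of the 37 proteasome genes tested, against 18.6% of all genes. With the correction for GC content *Psmb5*, *Psmd2*, *Psmd3* and *Psmc6* did not pass between ages. Of the 12 fits without 1 library, the call between ages was kept in 6 for *Psmd2* and in 4 for *Psmc6*. Between CB and HC at P35 it differed for *Psmb5* (0.57), 1 of 35 proteasome genes tested, against 9.61% of all genes. That call was kept in 3 of the 12 fits without 1 library. Age and region were also separate series of libraries, which cannot be told apart from them, and P14 CB had by far the largest share of reads on genes.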

How the results depend on the processing

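In P35 CB, 21 proteasome genes were called. The count was 10 with all 12 libraries of the age in 1 fit, 12 with the correction for GC content and 0 at a fold change of at least 1.5, and 13 to 18 without 1 library, the lowest 13 without the 16GsoT/T mouse C21 and 14 without the WT mouse M27. DESeq2 called 15. For the interaction with age in CB the 6 calls became 9 with DESeq2, with its size factors or with no filter. They became 5 with the correction for GC content, not all of them among the 6, and 3 to 7 without 1 library. For the interaction with region at P35 the 1 call became 3 with DESeq2, with its size factors or with the correction for GC content, and 0 to 2 without 1 library, being 0 in 9 of 12 such fits. For age in WT HC the 6 calls ranged from 1 to 7 without 1 library: 1 without N4, 3 without N5 and 2 without W481. The correction for GC content turned *Psmc6* to 0.16 in P35 CB (adjusted p = 0.0827, edgeR) and to 0.20 in the interaction with age (0.173). The median of P35 HC ranged from -0.030 to 0.11 without 1 library, the lowest without B10. In P14 CB, P14 HC and P35 HC the count was 0 in every alternative run. The causes were not tested, and the correction for GC content shows only how far the calls depend on it. No paired analysis was possible because the groups share no replicate numbers. Depth was lowest in P35 HC, where standard errors were larger than in P35 CB for *Psmb5* (0.15 against 0.08).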
